A study of Mus musculus with 2 samples.

Results

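Chromatin immunoprecipitation with sequencing (ChIP-seq) with an antibody against GFP in Pax7-YFP muscle stem cells was used to locate enriched DNA around 9 genes whose products restrain MyoD and its relatives, namely Msc, Mdfic, Mdfi, Id1, Id2, Id3, Id4, Twist1 and Twist2. Peaks belonged to a gene when the peak summit, the base with the highest coverage, lay inside the GRCm38 span of the gene or within 100 kb of it. By this rule 8 of the 2977 peaks in the authors' list fell at the 9 genes, out of 21887 protein-coding genes on assembled chromosomes. The peaks were chosen by summit position in the authors' list, and the genes were picked with earlier results of these data in view, so the values below are descriptions without a test.

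The GFP ChIP library and the input library both came from untreated muscle stem cells sorted by flow cytometry from C57BL/6 mice of the genotype Pax7-YFP KI, a knock-in of yellow fluorescent protein at Pax7, and the antibody was raised against GFP. The labels give neither the age nor the sex nor the number of the mice, and do not say whether animals were pooled. The ChIP library had 10622111 tags after filtering and the input 20429667, with 1 library of each kind, so no value has a spread between replicates. A control ChIP from cells without the tag was not analysed here. The libraries measure DNA and no transcripts, so the cell type could not be checked by expression. In the peak list, 6 of 6 muscle stem cell markers (Pax7, Calcr, Vcam1, Ncam1, Sdc4 and Cav1) held a summit inside the gene, against 5.46% of all protein-coding genes. Of the endothelial markers Cdh5, Pecam1 and Kdr, 1 of 3 (Pecam1) did, and 0 of 2 leukocyte markers (Ptprc and Cd68) and 0 of 2 fibro-adipogenic markers (Pdgfra and Ly6a) did. Inside or within 100 kb the counts were 6 of 6 muscle stem cell, 2 of 3 endothelial, 1 of 2 leukocyte and 0 of 2 fibro-adipogenic markers, against 31.4% of all protein-coding genes. The marker lists were chosen with earlier results of these data known, and the shares over all genes were not matched for gene length. The counts therefore give no check of the cell type.

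MyoD, Myf5, myogenin and Mrf4 are basic helix-loop-helix (bHLH) factors that pair with E proteins and bind the E-box, a short DNA motif, to switch on muscle genes. Muscle stem cells that express PAX7 hold this programme in check while they are quiescent. The inhibitors act at different steps. Msc (musculin, also called MyoR) and the Twist proteins are bHLH factors that compete for E proteins or for the E-box itself. Id proteins have the helix-loop-helix but no basic region, so that they take up E proteins in dimers that do not bind DNA. Mdfi (I-mfa) and Mdfic share a cysteine-rich domain through which they bind myogenic factors and keep them from DNA or out of the nucleus.

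Promoter sequences from RefSeq (GRCm38.p6, from 250 bases before to 50 bases after a start site) matched 7 of the 9 genes, and 1 of the 7 genes, Id3, had a summit in its window. Over all protein-coding genes with such a window, 3.08% of 17492 had a summit in it. The Id3 window is printed below because the called peak lies wholly inside it, with the bases of the peak in capitals. The Asap3 window is shown because the other peak near Id3 covers it from end to end, with matches to CANNTG and GTCACGC in capitals. Windows of Id2 and Mdfic, which held no summit, follow for comparison, with matches to CANNTG in capitals. They lie at chr4:136143572-136143871 on the plus strand for Id3, chr4:136206115-136206414 on the plus strand for Asap3, chr12:25096043-25096342 on the minus strand for Id2 and chr6:15720411-15720710 on the plus strand for Mdfic.
Id3: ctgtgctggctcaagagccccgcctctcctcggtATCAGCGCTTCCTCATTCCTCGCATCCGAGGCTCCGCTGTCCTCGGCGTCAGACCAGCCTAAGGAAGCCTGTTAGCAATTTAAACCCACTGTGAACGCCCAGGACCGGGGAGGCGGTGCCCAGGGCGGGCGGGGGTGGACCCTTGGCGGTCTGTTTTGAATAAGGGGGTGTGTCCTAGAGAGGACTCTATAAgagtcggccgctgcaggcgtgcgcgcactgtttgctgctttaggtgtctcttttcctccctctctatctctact
Asap3: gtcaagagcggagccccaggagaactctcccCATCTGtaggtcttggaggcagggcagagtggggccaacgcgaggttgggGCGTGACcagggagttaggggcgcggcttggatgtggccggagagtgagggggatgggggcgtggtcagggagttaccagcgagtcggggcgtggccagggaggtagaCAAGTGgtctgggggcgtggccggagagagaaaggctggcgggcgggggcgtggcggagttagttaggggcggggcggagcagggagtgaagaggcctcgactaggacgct
Id2: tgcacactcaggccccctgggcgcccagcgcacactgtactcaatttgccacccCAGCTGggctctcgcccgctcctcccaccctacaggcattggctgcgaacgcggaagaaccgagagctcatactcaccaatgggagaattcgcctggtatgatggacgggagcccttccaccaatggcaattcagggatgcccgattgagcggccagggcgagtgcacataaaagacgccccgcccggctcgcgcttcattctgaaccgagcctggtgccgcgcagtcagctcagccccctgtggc
Mdfic: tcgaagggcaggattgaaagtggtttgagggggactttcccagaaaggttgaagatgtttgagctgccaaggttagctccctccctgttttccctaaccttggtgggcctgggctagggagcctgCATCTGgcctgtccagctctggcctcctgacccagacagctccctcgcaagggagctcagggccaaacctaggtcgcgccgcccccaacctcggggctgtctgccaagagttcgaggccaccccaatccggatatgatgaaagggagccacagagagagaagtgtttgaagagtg

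Peaks were found at 3 of the 9 genes, Mdfic with 5, Id3 with 2 and Msc with 1. The share of 33.3% stood beside 31.4% of the 21887 protein-coding genes with a summit inside or within 100 kb, so that having a peak nearby does not set the 9 genes apart. The order of the shares changed with the window. With 10 kb, 2 of the 9 had a summit (10.8% of all genes), with 50 kb 3 of the 9 (21.4%) and with 200 kb 3 of the 9 (46.4%). Inside the gene itself, 1 of the 9 (Mdfic) held a summit, against 5.46% of all protein-coding genes. Most of these genes are short. Of the 6 with a span of 5 kb or less, 2 had a summit inside or within 100 kb, against 21.7% of the 5034 protein-coding genes of that size. No summit lay inside any of the 6, and 0.894% of genes of that size had one inside.

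**Figure D1:**
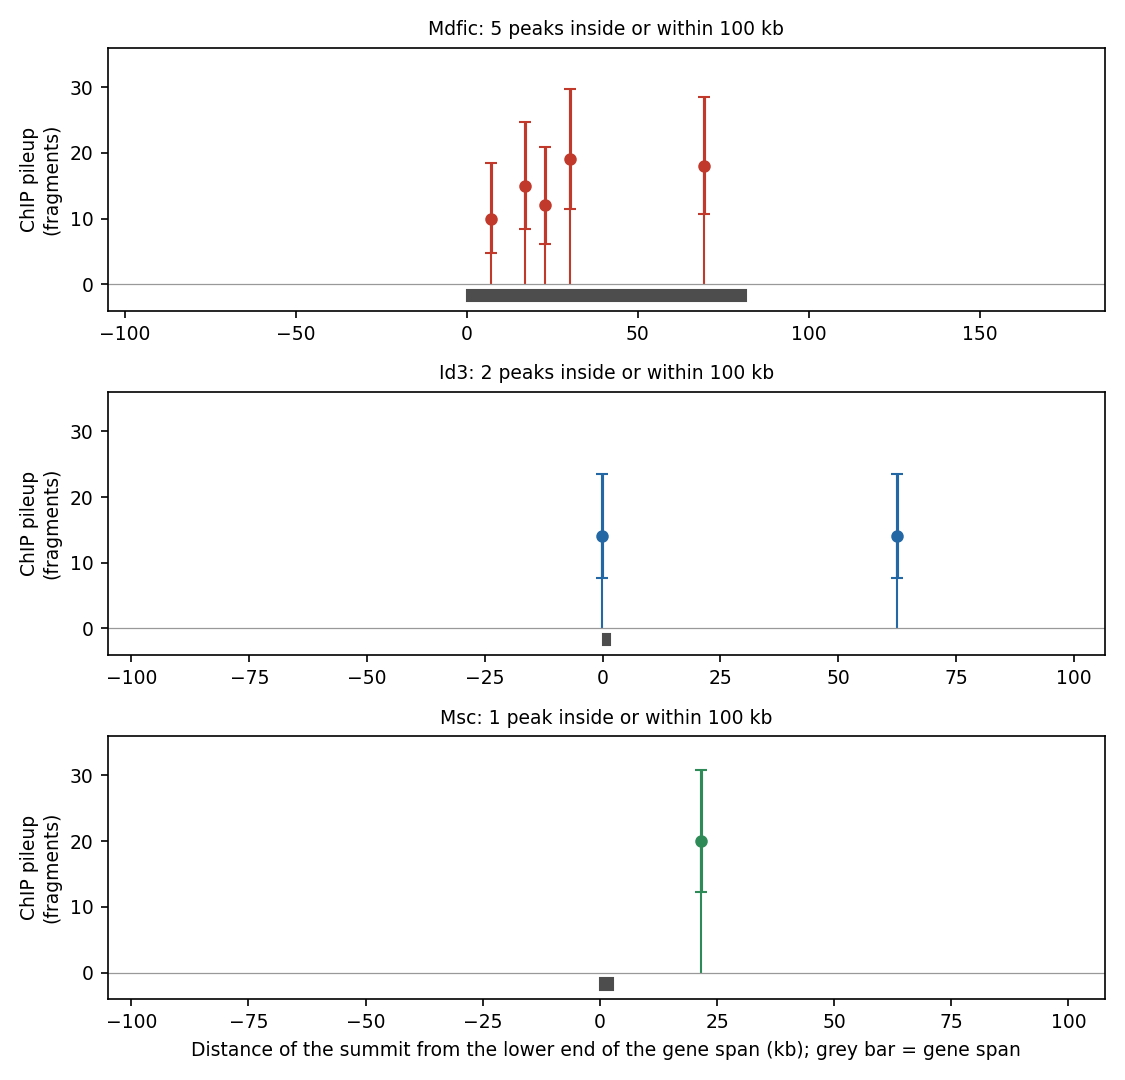
Summits near Mdfic (top), Id3 (middle) and Msc (bottom) by distance from the lower end of the gene span (kb), with the ChIP pileup in fragments and its exact Poisson 95% interval as bars and the gene span in grey. The 5 Mdfic summits all lie inside the gene, 1 Id3 summit sits at the gene's start, and the Msc summit stands 18.73 kb beyond the gene.

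Mdfic, which encodes an I-mfa domain protein that binds bHLH factors, lies at chromosome 6, 15720566 to 15802169, a span of 81.6 kb on the plus strand, and all 5 of its summits were inside the gene. Pileup, which counts the ChIP fragments that cover a summit, was 10, 15, 12, 19 and 18 from the gene's start towards its end. The matching fold enrichments, computed by the authors' caller as pileup over the local input background, were 5.31, 6.83, 6.58, 9.80 and 7.28. The fourth peak, at 15750524 to 15750966, thus had both the highest pileup and the highest fold, and at 443 bp it was also the widest, with 5.24% of all peaks wider. The peak nearest to the start, at 15727537 to 15727733, was the weakest, and 93.75% of all peaks had a higher fold. The exact Poisson 95% interval of the fold was 6.10 to 15.0 for the fourth peak and 2.80 to 9.35 for the first, so these intervals overlap. Such intervals hold the background fixed and cover counting error only.

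The Mdfic summits stood 7.03, 16.94, 22.85, 29.98 and 69.42 kb downstream of the RefSeq start site, and so beyond its promoter window. The gaps between neighbouring summits were 9.909, 5.915, 7.125 and 39.44 kb. The 4 summits in the first part of the gene therefore spanned 22.95 kb, and the fifth stood apart near the far end. Another summit within 10 kb was present for 4 of the 5 Mdfic peaks, against 14.6% of the 2977 peaks. Outside the gene the next summits were 7218 kb below the first and 1519 kb above the last, so that no peak outside Mdfic belongs to the group. There was no other protein-coding gene within 100 kb of Mdfic. Exon boundaries were not used here, so the summits are placed no more exactly than inside the gene.

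Counted inside or within 100 kb, 21 protein-coding genes (0.0959%) had more summits than the 5 of Mdfic. Few genes held as many summits inside their span as Mdfic, and those were longer. At least 5 summits inside the span were found in 10 protein-coding genes (0.0457%), and Mdfic was the shortest of them. Of the 4608 genes with 0.5 to 2 times the span of Mdfic, 432 (9.38%) had a summit inside and 2 (0.0434%) had 5 or more, Mdfic and Gxylt2, a xylosyltransferase gene. Gxylt2 had 5 summits in 106.2 kb, of which 4 remained when summits within 1 kb were merged, whereas all 5 of Mdfic remained. This corresponded to 6.13 summits per 100 kb of span in Mdfic and 4.71 in Gxylt2, and the other 8 genes had between 0.452 (Auts2) and 2.64 (Nsmce2). In strength the Mdfic peaks were ordinary members of the list. Their median fold was 6.83, against 7.35 for all peaks, and 1 of the 5 reached the median of all peaks. Of the 5, 2 were left among peaks whose −log10 q reached the median of the list.

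**Figure D2:**
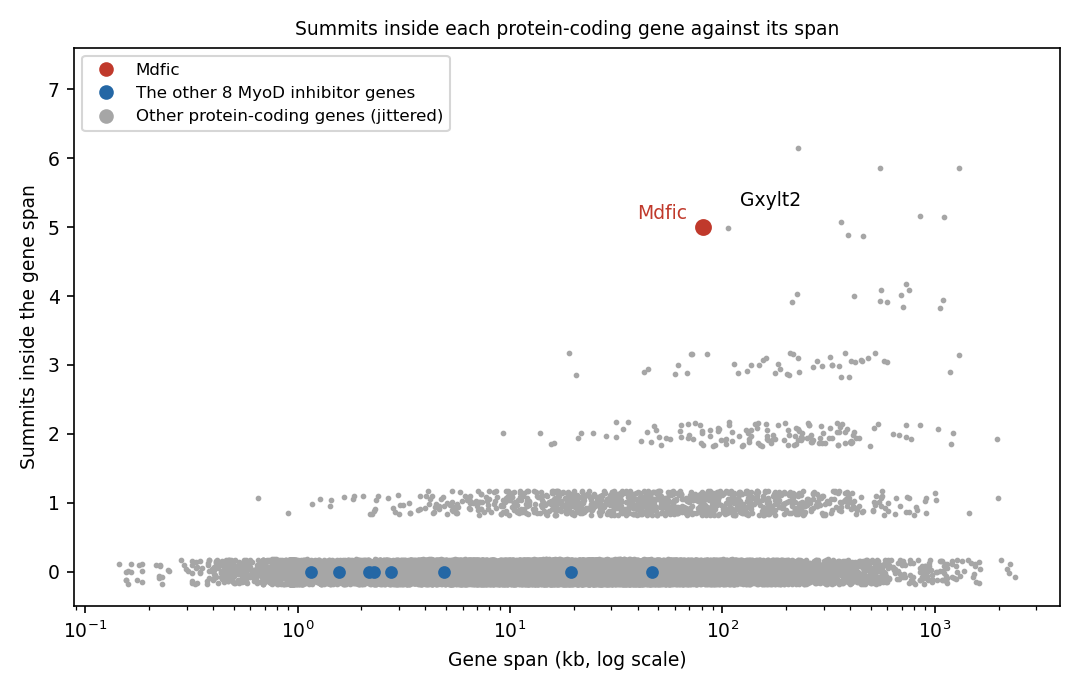
Summits inside each protein-coding gene against the gene's span (kb, log scale); grey points are other genes with vertical jitter, blue points the other 8 MyoD inhibitor genes and the red point Mdfic. Mdfic has 5 summits in 81.6 kb and lies left of the other genes with 5 or more, while the blue points are all at 0.

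The local input background entered the fold of each peak. Divided by the depth factor of 0.5199, it came to the equivalent of 2.06, 2.58, 1.88, 2.0 and 3.10 input fragments at the 5 Mdfic summits. It was 2.0 at the Msc peak, and 1.88 and 1.89 at the Id3 peaks, against a median of 2.0 for all peaks. The fifth Mdfic peak had the highest of these backgrounds, and its fold of 7.28 stands on a pileup of 18, close to the 19 of the fourth peak with its fold of 9.80. Before the division by 0.5199, the background was at or next to the genome-wide value of 0.977 fragments for 3 of the 8 peaks. The same held for 1425 of all 2977 peaks. The 3 were the third Mdfic peak and both Id3 peaks, so their fold is in effect pileup over a constant.

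Id3, one of the Id genes whose products take up E proteins, had the only peak at a gene's start among the 9 genes. The gene lies at chromosome 4, 136143822 to 136145392, on the plus strand. The peak at 136143606 to 136143797 ran from 216 to 25 bp before the start site. Its summit, 73 bp before that site, lay inside no annotated gene. The pileup of this peak was 14 and its fold 7.59 (Poisson interval 4.38 to 12.4), at a width of 192 bp. It was thus an average peak of the list, with 41.45% of all peaks higher in fold. A summit inside the gene or closer than these 73 bp was found for 6.20% of protein-coding genes.

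The second summit within 100 kb of Id3 belonged by position to another gene. It stood 60.916 kb above the end of Id3 but 42 bp outside the span of Asap3, which encodes an Arf GTPase-activating protein, and 57 bp before the RefSeq start site of Asap3. E2f2, a cell cycle transcription factor gene, and Rpl11, a ribosomal protein gene, also lie within 100 kb of Id3. The pileup of this peak was 14 as well and its fold 7.56 (4.36 to 12.3), while its width of 351 bp was larger, with 14.11% of all peaks wider. When a peak was given to the nearest protein-coding gene alone, Id3 kept 1 peak. The summits at Id3 and Asap3 were 62.56 kb apart.

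The sequences printed above differ in the motifs they hold. The search covered 5 motifs on both strands, namely CANNTG (the E-box), CAGCTG (an E-box form, which every CANNTG count includes), a palindromic site for paired homeodomains, GTCACGC (part of a site for the paired domain) and TGANTCA (AP-1). None of the 5 occurred in the Id3 window. CANNTG was in 72.3% of the 32851 RefSeq promoter windows and in 60.0% of the 628 that, like the Id3 window, held a summit. Across all 32851 windows CAGCTG was in 16.3%, the homeodomain site in 0.39%, GTCACGC in 2.09% and TGANTCA in 7.81%. The Asap3 window held CANNTG at 219 and 61 bp before its start site, as CATCTG and CAAGTG. It also held GTCACGC on the opposite strand, as GCGTGAC, from 169 bp before the start site. The Id2 window had 1 E-box, CAGCTG, and the Mdfic window 1, CATCTG. The first Mdfi window had 4 E-boxes, and the second Mdfi window as well as those of Id4, Twist1 and Twist2 had none. By base composition the Id3 window was 60.0% G and C with 19 CpG, against a median of 62.0% and 24 CpG in the 628 promoter windows with a summit and 52.7% and 7 CpG in all windows. A match describes letters only, and the sequences under the Mdfic and Msc peaks were not used here.

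Msc, the gene of the bHLH repressor musculin, had 1 peak, with the highest measured fold of the 8, though its interval overlaps those of the others. The gene lies at chromosome 1, 14753344 to 14756089, and the peak at 14774667 to 14774952, with its summit 18.73 kb above the upper end of the gene. The pileup was 20 and the fold 10.3 (6.48 to 15.6), with 11.25% of all peaks higher in fold and 27.58% wider than its 286 bp. The summit fell inside Gm9947, a long noncoding RNA gene. Msc was the nearest protein-coding gene, and no other lay within 100 kb of Msc. The summit was also 97.83 kb from Trpa1, so the 100 kb rule counts it for that gene too. This peak was isolated, as the next summits were 1348 kb below and 2349 kb above it. A peak of 10-fold or more made up 14.4% of the whole list and 1 of the 8 peaks here.

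**Figure D3:**
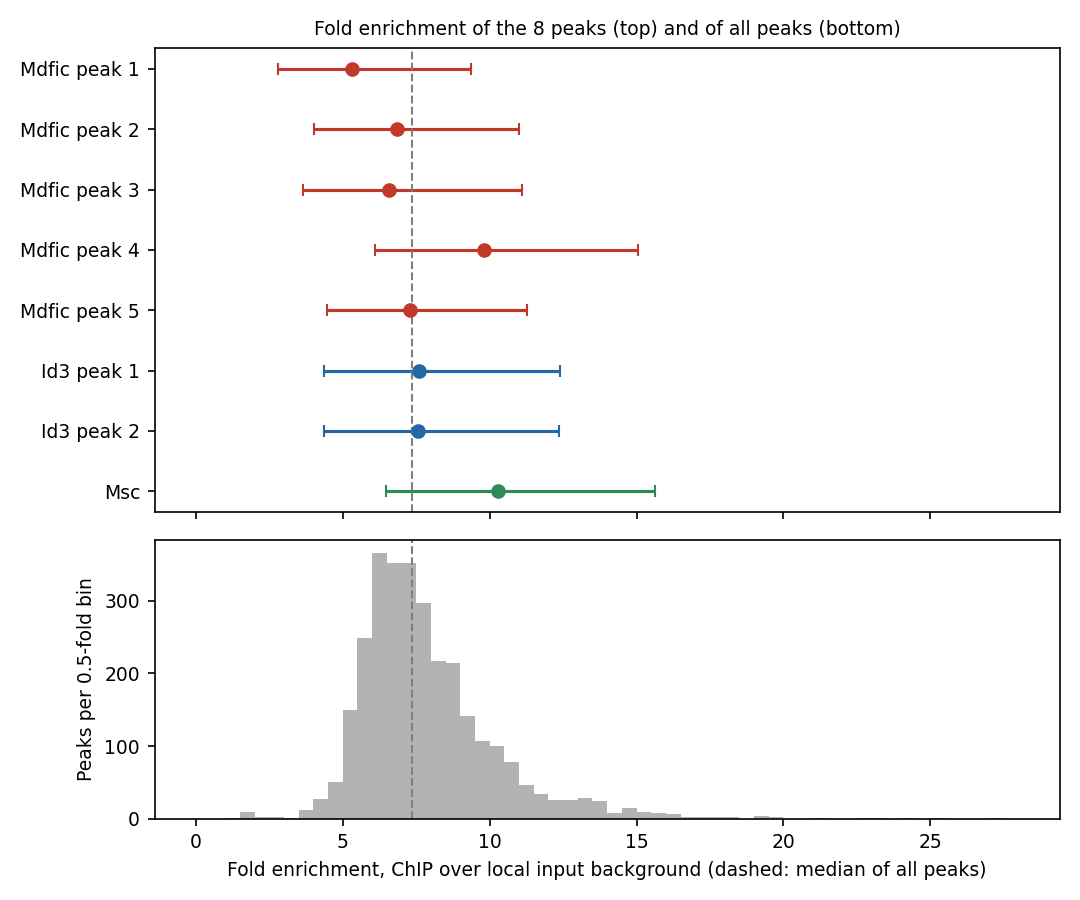
Fold enrichment of the 8 peaks with exact Poisson 95% intervals (top; peaks of a gene numbered by position) and the number of all 2977 peaks per bin of 0.5-fold (bottom); the dashed line is the median of all peaks, 7.35. The Msc peak at 10.3 and the fourth Mdfic peak at 9.80 lie highest, and all 8 intervals overlap.

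Across the 8 peaks, fold enrichment ran from 5.31 to 10.3 with a median of 7.42, next to a median of 7.35 for all 2977 peaks. The median pileup was 14.5 fragments against 15 for all peaks, and the median width 218 bp against 230 bp. The highest lower bound of the 8 fold intervals was 6.48 and the lowest upper bound 9.35, so every pair of intervals overlapped. Overlap alone does not decide whether a pair of peaks differs, and no pair was tested. The 8 are therefore given no order of strength.

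The other 6 genes, Mdfi, Id1, Id2, Id4, Twist1 and Twist2, had no peak in their windows. Twist2 came nearest, with a summit 238.3 kb away, followed by Id4 at 280.6 kb. The distance was 500.2 kb for Id2, 528.1 kb for Twist1, 613.7 kb for Id1 and 957.3 kb for Mdfi. Within the Id family, then, the summits nearest to Id1, Id2 and Id4 were 280.6 kb or more away, whereas that of Id3 was at its start. The I-mfa genes differed in the same manner, since 82.3% of all protein-coding genes had a nearer summit than Mdfi and Mdfic held 5 inside. For Twist2 the share of genes with a nearer summit was 50.8%, for Id4 55.0%, for Id2 69.3%, for Twist1 70.6% and for Id1 73.9%. The windows of Twist1 and Twist2 also reached the class IIa histone deacetylase genes Hdac9 and Hdac4, and no summit lay in either window. Hdac4 itself, which extends beyond the window, held 1 summit, and that was the summit 238.3 kb from Twist2, where 12 fragments gave 6.58-fold (3.64 to 11.1). Hdac9 held 0. The farthest summit counted was the one at 60.916 kb from Id3. The nearest one left out also lay on the side of Id3, 223.1 kb below the summit at its start. No summit therefore lay close to the limit of 100 kb. At 10622111 tags a missing peak means that none passed the authors' q-value limit of 0.01, not that binding is absent.

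**Figure D4:**
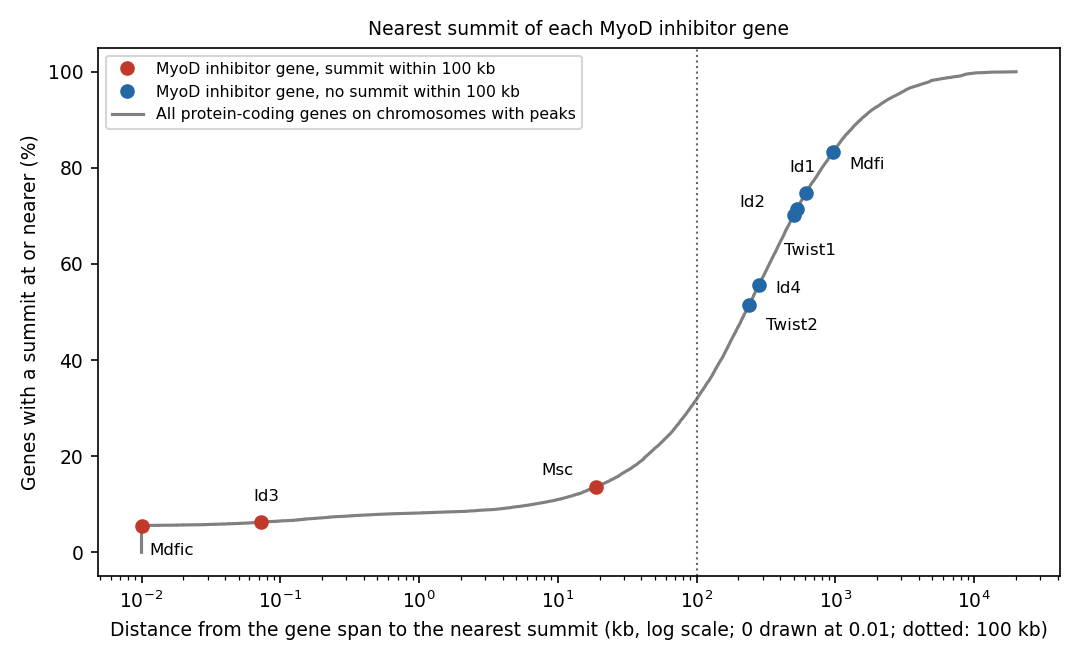
Share of protein-coding genes with a summit at or nearer than a given distance from the gene span (grey line; kb, log scale, with 0 drawn at 0.01), with the 9 genes as points, red with and blue without a summit within 100 kb (dotted line). Mdfic, Id3 and Msc lie at 0, 0.073 and 18.73 kb, and the other 6 from 238.3 kb (Twist2) to 957.3 kb (Mdfi).

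Partners, targets and further regulators of the same step showed similar shares. Among the myogenic bHLH genes that the inhibitors act on, 1 of 4 (Myod1) had a summit inside or within 100 kb. Myod1 had 3, all outside the gene, of 9.10-fold at 27.492 kb, 11.8-fold at 38.645 kb and 9.31-fold at 62.823 kb, and the last 2 were nearest to Otog. Of the E proteins 1 of 3 did, Tcf12, with 4 summits. The summit inside Tcf12 had a fold of 7.27, that at 21.473 kb from the gene 6.41, and those at 17.829 and 84.841 kb, nearest to Cgnl1 and Zfp280d, 8.33 and 8.09. Among 11 other genes that repress MyoD or activation through E-boxes, 3 had a summit. Bhlhe40, a bHLH repressor gene, had one of 6.64-fold at 1.083 kb and one of 8.09-fold at 42.632 kb. Zeb1, a zinc finger repressor of E-boxes, had one of 8.80-fold inside the gene and one of 5.47-fold at 34.054 kb. The only summit near Tcf21, at 85.855 kb, lay inside Tbpl1. Of 16 BMP pathway genes, which act upstream of Id genes, 4 had a summit, and Smad7, an inhibitory Smad gene, had its summit of 5.56-fold at 0.549 kb. Chrdl2, a gene for a BMP antagonist, had one of 6.07-fold at 11.885 kb and one of 13.2-fold at 41.329 kb, the last nearest to Pold3. Smad6, another inhibitory Smad gene, had one of 9.13-fold at 25.552 kb, and the ligand gene Bmp4 one of 8.09-fold at 22.463 kb. The 31.4% of all protein-coding genes is the share to read these counts against, and the median number of peaks per gene was 0 in each list, as it was over all genes.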

How the data were processed

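The study holds 1 GFP ChIP and 1 input library, grouped by the titles in the labels and sequenced as single-end 50 bp reads per the labels' protocols. The submitters' processing notes name the build GRCm38 and the tools HISAT2 2.10, MACS2 2.1.1 and bcl2fastq 2.16, with no role or order. Peaks were called with MACS 2.1.1.20160309 on 1 ChIP library against 1 input, without pooling, at a q-value limit of 0.01, an effective genome size of 1.87e+09 and a fragment length of 172 bp, per the file headers. Local background came from windows of 1000 and 10000 bp, and the input, the deeper library, was scaled down to match the ChIP, per the file headers. As deposited, pileup is an unscaled coverage signal, and fold enrichment is a ratio of pileup to local background, each with 1 added. The −log10 q-value and −log10 p-value were deposited as the caller wrote them.

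From these, the background was recovered from fold and pileup. Its lower quartile of 0.977 fragments equals the genome-wide value of 0.977 that tags, fragment length and genome size give. Exact Poisson 95% intervals of the pileup were carried to the fold. Gene spans came from RefSeq GRCm38.p6 (all 9 genes matched by symbol), and strand and start sites came from its promoter windows, with Msc and Id1 not used there. Positions are 1-based. The genes named are the 9 members, the protein-coding genes nearest to their peaks or within their windows, and list genes with a summit within 100 kb. All cell type markers are also named, with or without a summit. Otog, Cgnl1, Zfp280d, Tbpl1 and Pold3 are named as the protein-coding genes nearest to summits of list genes. Gxylt2, Auts2, Nsmce2 and Trpa1 were named after their values were seen. The members and lists were chosen with earlier results of these data known, and the gene-size comparisons and the comparison by promoter composition were added after the peaks were seen. No test was run, since there is 1 library a group. Alternatives were 2 stricter peak limits, no peaks of the top 1% in pileup, windows of 10, 50 and 200 kb, any base in place of the summit, the nearest gene alone, and merging summits within 1 kb. Python 3.11.15, pandas 2.3.3, numpy 2.4.6 and scipy 1.17.1 were used, and the window count was checked on simulated data.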

Additional observations from a re-analysis of the deposited data

How the results depend on the processing

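The number of genes with a peak among the 9 was 3 in the main count, 2 with a window of 10 kb and 3 under the other 8 alternatives. The number of peaks near them, 8 in the main count, was 5 when −log10 q had to reach the median of the list and 4 when the fold had to. The stricter limits by construction keep fewer peaks. Mdfic then had 2 and 1 of its 5 peaks. Id3 had 1 peak in place of 2 with windows of 10 or 50 kb and with the nearest gene alone, and Msc had 0 with a window of 10 kb. These were 6 of the 27 counts for the 3 genes with a peak. The other 6 genes stayed at 0, which stricter peak limits or narrower windows cannot change. The median fold of the peaks, 7.42, ran from 7.06 (window of 10 kb) to 8.70 (fold at the median or above, which raises it by construction). No paired analysis was possible because there was 1 library of each kind and no test was run. A pileup near 15 fragments limits any order of strength between single peaks.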

Other observations

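GTCACGC, the motif found in the Asap3 window, was in 14.2% of the 628 promoter windows with a summit and in 2.09% of all 32851 windows. CANNTG was in 60.0% and 72.3%, CAGCTG in 15.3% and 16.3%, TGANTCA in 5.89% and 7.81%, and the homeodomain site in 0.159% and 0.39%. Windows with a summit were also richer in G and C, at a median of 62.0% against 52.7% in all windows, and the part of this composition in the motif shares was not tested. The Id3 window, with its summit, belongs to the windows that hold none of the 5 motifs.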
